A study of Schizosaccharomyces pombe with 4 samples.

Results

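Ribosome biogenesis factors are the proteins that build ribosomes without staying in them, and their messenger RNAs were compared here between fission yeast cells overexpressing Atf1 and cells with an empty vector. The genes were chosen by name alone: S. pombe probe sets whose symbol belonged to the utp, rrp or nop series, or was fib1, gar1, cbf5 or 1 of a fixed set of other assembly factor names. This gave 30 genes, each read by 1 probe set, of 2899 S. pombe genes named on the array, and all 30 lay above background on all 4 arrays. The naming rule used no expression value, although earlier results of these data were known when genes, lists and tests were chosen. RNA came from Schizosaccharomyces pombe of 2 kinds, Atf1-OP cells and wild type cells carrying the empty vector, with 2 Affymetrix arrays for each, called biological replicates in the titles. Atf1 is a bZIP transcription factor that acts below the stress-activated MAP kinase Sty1. For the vector, its promoter, the growth medium and the time of induction, the sources used here state nothing. A p-value from 2 arrays against 2 rests on the spread between these few arrays. The fit (limma) took each gene's spread partly from its own arrays and partly from the other genes tested.

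A ribosome starts as a long precursor RNA transcribed in the nucleolus by RNA polymerase I. Small nucleolar ribonucleoproteins (snoRNPs) modify this precursor, and a large particle, the small subunit processome, folds and cuts the part that becomes the small subunit. Other factors assemble the large subunit and carry it out of the nucleus, and the RNA exosome trims ends and destroys discarded pieces. Yeast cells make these factors in quantity while growing, and their messenger RNAs are known to fall in many stresses. Most roles below were worked out in the budding yeast Saccharomyces cerevisiae and are named from there.

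On the arrays, S. pombe probe sets had deposited log2 medians of 6.96 and 6.97 under Atf1 overexpression and 6.80 and 6.70 with the empty vector, against 2.12 to 2.29 for S. cerevisiae probe sets on the same arrays. The atf1 probe set read 6.83 and 7.37 in Atf1-OP cells and 6.13 and 6.42 in empty vector cells on the normalized log2 scale. This was a difference of 0.83 ± 0.20 (SE; limma, adjusted p = 0.0262), and the call was lost in the fits without Atf1-OP replicate 2, empty vector replicate 1 or empty vector replicate 2 (adjusted p = 0.155, 0.109 and 0.0621). Added control transcripts also differed between the groups. The 27 hybridization control probe sets were all lower in Atf1-OP cells, by a mean of -1.02, and the 12 probe sets in the middle of the poly-A controls were all higher, by a mean of 1.22 (log2, deposited scale). Their part in the results below was not tested.

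Of the 30 genes, 5 rose under Atf1 overexpression, 1 fell and 24 did not pass an adjusted p of 0.05. The genes that rose were nop16, utp20, gar1, bms1 and cbf5, between 1.23-fold and 1.53-fold, and the gene that fell was utp23, 1.59-fold. These 6 genes are 20% of the 30, and 21.4% of all 2857 genes tested passed the same threshold, so the share was near that of the array as a whole. By direction, 10.3% of all genes rose and 11.1% fell. The median log2 difference of the 30 genes was 0.01, against -0.01 for all genes tested, and the means were 0.09 and 0.00. Single genes ran from -0.67 to 0.81. The groups of arrays did not overlap for 16 of the 30 genes, 10 higher and 6 lower in Atf1-OP cells, which is 53.3% of them against 66.3% of all genes. In all, 16 genes had a positive difference and 14 a negative one, against 27 and 3 in the values as deposited. Over all 2857 genes tested, 1394 differences were positive and 1463 negative, against 2173 and 684 as deposited.

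**Figure D1:**
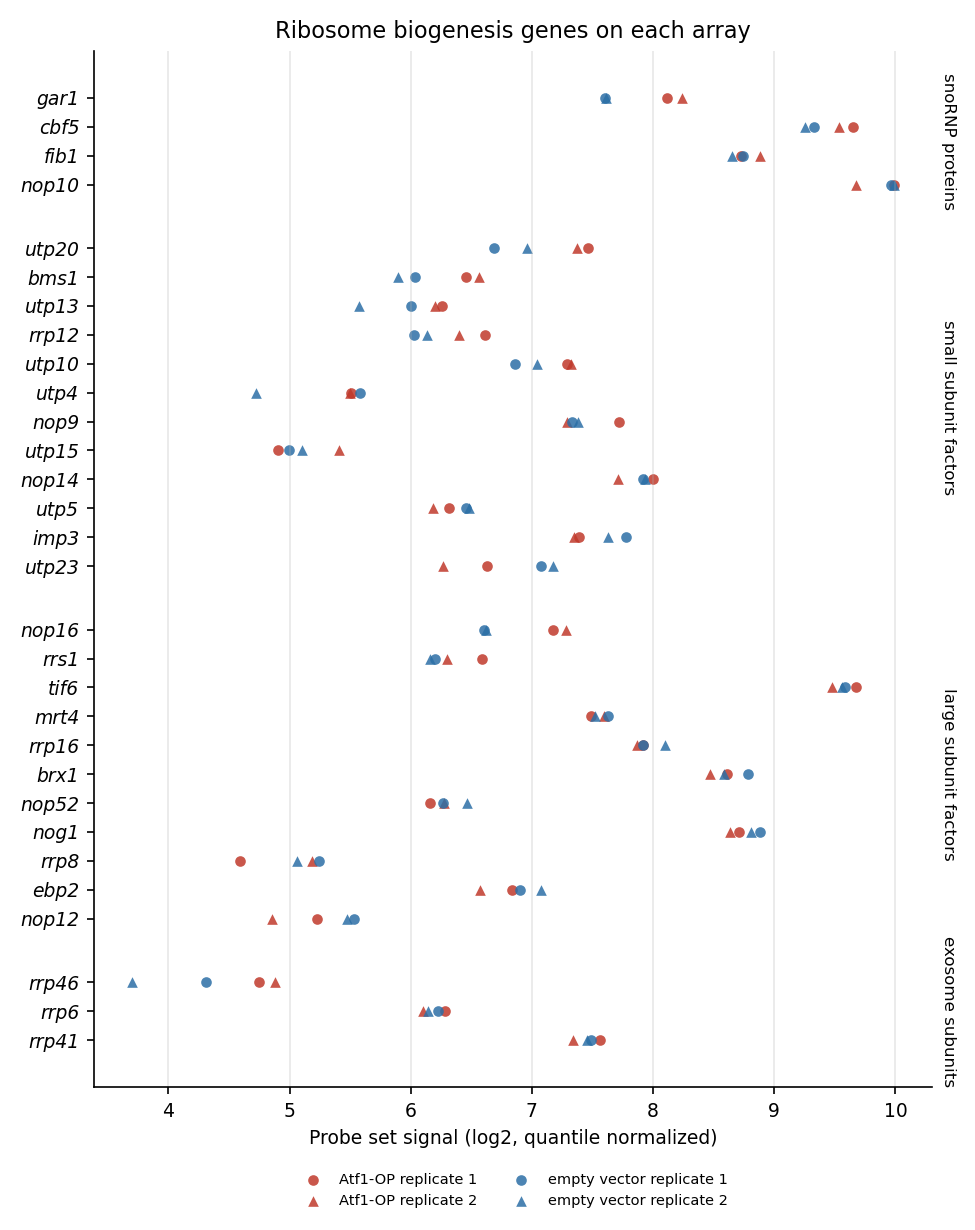
Normalized log2 signal of the 30 ribosome biogenesis genes on each of the 4 arrays, Atf1-OP in red and empty vector in blue, grouped by role. Signals are to be compared between arrays within a gene, not between genes; gar1, cbf5, utp20, bms1 and nop16 have both red points right of both blue points, and utp23 has both to the left.

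Among the snoRNP proteins, 2 of 4 genes rose. Gar1 and Cbf5 belong to the H/ACA snoRNPs, which turn uridines of ribosomal RNA into pseudouridine; Cbf5 is the enzyme and Gar1 a partner that helps it turn over its substrate. The gar1 transcript (SPBC20F10.01) had normalized log2 signals of 8.11 and 8.24 in Atf1-OP cells, against 7.60 and 7.61 in empty vector cells. Both Atf1-OP arrays were higher than both empty vector arrays, 1.49-fold on average, with a log2 difference of 0.57 ± 0.10 (SE; limma, adjusted p = 0.0121). The cbf5 transcript (SPAC29A4.04C) had 9.65 and 9.54 in Atf1-OP cells and 9.33 and 9.25 in empty vector cells. It was 1.23-fold higher without overlap, with a log2 difference of 0.30 ± 0.08 (SE; limma, adjusted p = 0.0368).

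The other two did not pass. Nop10, a small protein of the same H/ACA particle, had 9.99 and 9.68 for its transcript in Atf1-OP cells and 9.96 and 9.99 in empty vector cells. Only Atf1-OP replicate 2 stood lower, and the difference was -0.14 with a 95% interval of -0.39 to 0.11. Without Atf1-OP replicate 1, nop10 passed as lower (adjusted p = 0.0163), while its adjusted p in the other 3 fits that left out an array was 0.555 or above. Fibrillarin, encoded by fib1, is the methyltransferase of the box C/D snoRNPs, which place 2′-O-methyl groups on ribosomal RNA. Its transcript read 8.73 and 8.88 in Atf1-OP cells and 8.74 and 8.65 in empty vector cells, and the interval of the difference ran from -0.11 to 0.33. The remaining H/ACA protein gene, nhp2, which the naming rule did not take in, stood at -0.22 (adjusted p = 0.154).

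The small subunit group held 12 genes, of which utp20 and bms1 rose, utp23 fell and 9 did not pass. Its median log2 difference was 0.25, and 8 of the 12 differences were positive. As deposited, the median was 0.58 and 10 were positive. Over all 2857 genes tested, 1394 differences were positive, and 2173 as deposited. Utp20 is a very large helical repeat protein of the small subunit processome in budding yeast. The utp20 transcript (SPBC56F2.04) had 7.47 and 7.37 in Atf1-OP cells and 6.69 and 6.96 in empty vector cells, higher on both Atf1-OP arrays by 0.60 ± 0.14, or 1.51-fold (SE; limma, adjusted p = 0.0224). Bms1 is a GTPase needed for early cuts in the precursor. The bms1 transcript (SPBC31E1.06) read 6.45 and 6.57 in Atf1-OP cells and 6.04 and 5.89 in empty vector cells, 1.46-fold higher without overlap (log2 difference 0.54 ± 0.15 SE; limma, adjusted p = 0.0370).

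Utp23, which in budding yeast acts on an H/ACA snoRNA of the processome, had the opposite change. The utp23 transcript (SPCC18.12C) had 6.63 and 6.27 in Atf1-OP cells and 7.07 and 7.17 in empty vector cells. The groups did not overlap, although the Atf1-OP arrays lay 0.36 apart on the log2 scale. The difference was -0.67 ± 0.16 (SE; limma, adjusted p = 0.0235), with an interval of -1.04 to -0.31. In the values as deposited it was -0.43 and did not pass (adjusted p = 0.0534).

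A further 5 small subunit genes had groups without overlap and missed the threshold. The utp10 transcript, for another large repeat protein of the processome, had 7.29 and 7.33 in Atf1-OP cells and 6.86 and 7.04 in empty vector cells (log2 difference 0.36, adjusted p = 0.0770). The rrp12 transcript, for a repeat protein of subunit export, read 6.61 and 6.40 in Atf1-OP cells and 6.03 and 6.13 in empty vector cells (0.42, adjusted p = 0.0848). The utp13 transcript, for a WD-repeat subunit of the UTPB complex, had deposited log2 values of 6.42 and 6.41 in Atf1-OP cells and 5.87 and 5.27 in empty vector cells (normalized difference 0.44, adjusted p = 0.121). Those 3 genes were higher on both Atf1-OP arrays, and for utp13 the low point was empty vector replicate 2.

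The imp3 transcript lay on the other side, with 7.39 and 7.34 in Atf1-OP cells and 7.77 and 7.62 in empty vector cells (-0.33, adjusted p = 0.0728). Imp3 joins the U3 snoRNA to the precursor in budding yeast. The utp5 transcript, for a UTPA subunit in budding yeast, was likewise lower without overlap, at -0.21 (adjusted p = 0.297), and stood at 0.10 in the values as deposited. The UTPA genes utp4 (0.35) and utp15 (0.11) had overlapping groups. For utp4, empty vector replicate 1 read 5.58 and replicate 2 read 4.72, so that its interval ran from -0.29 to 0.99. The pre-ribosome factor genes nop9 (0.15) and nop14 (-0.07) also had overlapping groups.

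**Figure D2:**
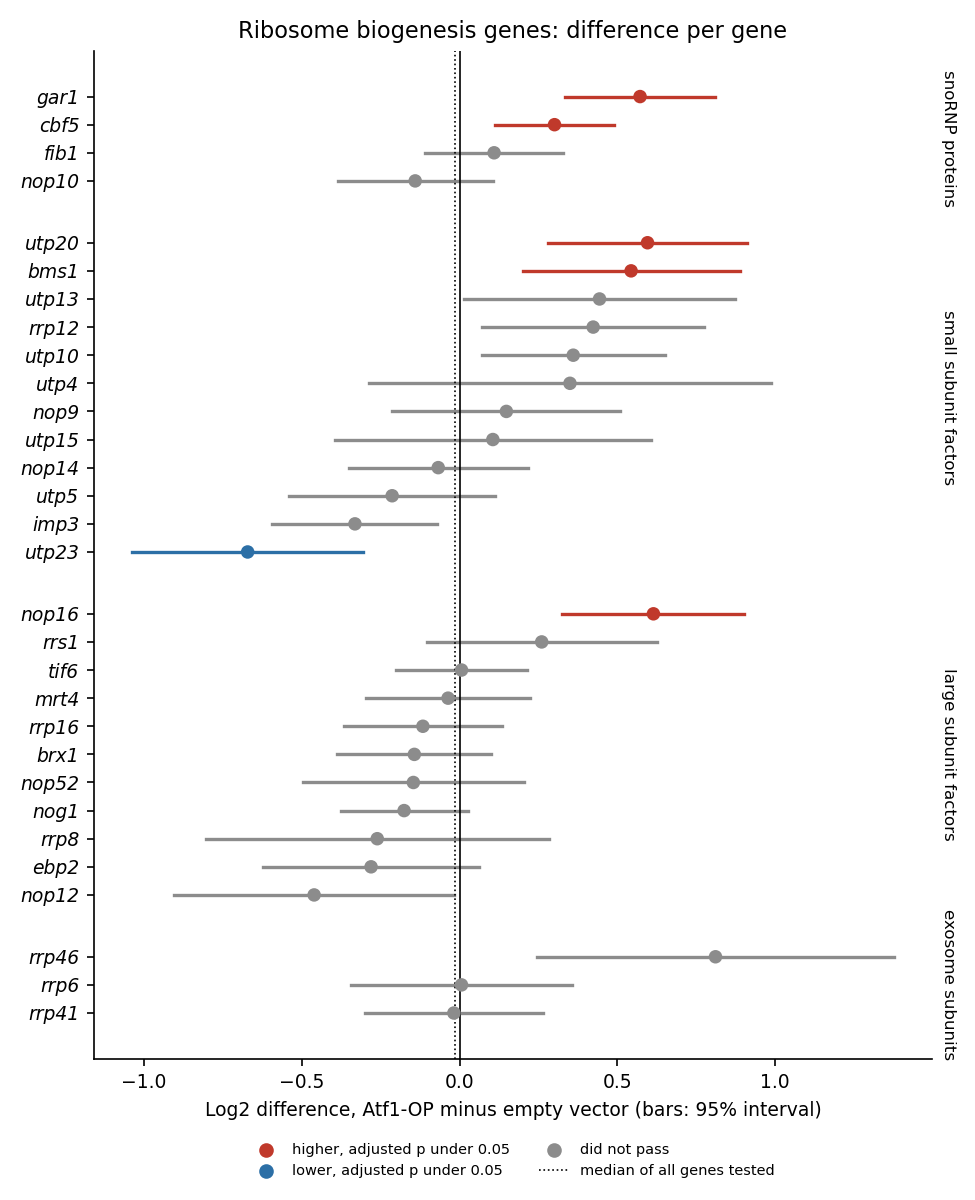
Log2 difference of each gene, Atf1-OP minus empty vector, with 95% intervals from limma, on quantile normalized values. Red marks the 5 genes that rose, blue utp23, which fell, and grey the 24 that did not pass; the dotted line is the median of all 2857 genes, at -0.01.

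Of 11 large subunit factors, nop16 rose and 10 did not pass. The median of this group was -0.14, with 8 of 11 differences negative. In the values as deposited, the median of all genes was 0.27. There the median of the large subunit group was 0.11 with 10 of 11 positive, and 3 of its genes rose. Among all 2857 genes on that scale, 2173 differences were positive and 31.6% of genes rose. Nop16 takes part in early assembly of the large subunit. The nop16 transcript (SPBC1539.10) read 7.17 and 7.28 in Atf1-OP cells and 6.60 and 6.62 in empty vector cells. The Atf1-OP arrays were 1.53-fold higher, and the log2 difference of 0.61 ± 0.12 (SE) exceeded the spread in either group (limma, adjusted p = 0.0167).

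The largest negative difference in the group was that of nop12, which encodes an RNA-binding protein of large subunit assembly. It had 5.22 and 4.86 in Atf1-OP cells and 5.53 and 5.47 in empty vector cells, a difference of -0.46 that did not pass (adjusted p = 0.119) and stood at 0.04 in the values as deposited. The genes for Ebp2 (-0.28), which acts early in large subunit assembly, and for the GTPase Nog1 (-0.18), which travels with the particle to the cytoplasm, were lower without overlap and did not pass (adjusted p = 0.203 and 0.178). The rrs1 transcript, for a protein that brings the 5S particle in, was higher without overlap by 0.26 and did not pass either (adjusted p = 0.259).

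The groups overlapped for the other 6 genes of large subunit assembly. The brx1 (-0.14) and mrt4 (-0.04) transcripts encode an early assembly factor and a placeholder for the ribosomal stalk. The rrp16 transcript (-0.12), also known as nop53, encodes a factor that recruits the exosome helicase in budding yeast. The others were nop52 (-0.15), a nucleolar assembly protein gene, and rrp8 (-0.26), which encodes a methyltransferase of the large subunit RNA. For rrp8 the Atf1-OP arrays read 4.59 and 5.19 and the empty vector arrays 5.24 and 5.06, so that the spread lay in the Atf1-OP group. The tif6 transcript, for the factor that keeps the large subunit from joining too early, was at 0.01 with an interval of -0.20 to 0.21.

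The exosome subunit genes gave the largest difference of all 30 and no call. The rrp46 transcript (SPBC115.01C), for a subunit of the exosome ring, had 4.75 and 4.88 in Atf1-OP cells and 4.31 and 3.70 in empty vector cells. The lowest of these values, 3.70 on empty vector replicate 2, lay close to the background of that array, 3.33. The groups did not overlap, and the empty vector arrays lay 0.61 apart. At 1.75-fold, with a log2 difference of 0.81 ± 0.24 (SE), it narrowly missed the threshold (adjusted p = 0.0511 in limma), and across 14 alternative settings the adjusted p ranged from 0.00336 to 0.272. Another ring subunit, rrp41, stood at -0.02, and rrp6, which encodes the nuclear exonuclease attached to the ring, at 0.01. Their intervals were -0.30 to 0.26 and -0.35 to 0.36. Other genes of the exosome and its helper, outside the naming rule, were dis3 (0.14), csl4 (0.12) and mtr4 (0.15), and none of these 3 passed.

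No ribosome biogenesis gene passed in all 4 fits that left out 1 array. The number called was 4 without Atf1-OP replicate 1 (2 higher and 2 lower), 2 without Atf1-OP replicate 2, 1 without empty vector replicate 1 and 0 without empty vector replicate 2. Over all genes, 22.3%, 10.3%, 4.2% and 4.03% passed in those fits. The gar1 call held without Atf1-OP replicate 1 and also without Atf1-OP replicate 2, with log2 differences of 0.51 to 0.64 over the 4 fits and adjusted p of 0.0167 to 0.0892. The nop16 differences ran from 0.56 to 0.67, those of utp20 from 0.46 to 0.73, those of bms1 from 0.47 to 0.62 and those of cbf5 from 0.25 to 0.36. All of these kept a positive sign, and utp23 kept a negative one, from -0.85 to -0.49.

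The scaling between arrays set how many genes passed and the balance of directions. The median of all genes was 0.27 higher in Atf1-OP cells in the values as deposited. There, 11 of the 30 genes rose and none fell, with 31.6% of all genes higher and 4.06% lower. The list median was 0.29 on that scale, again close to the 0.27 of all genes. Added to the calls were tif6, rrs1, utp10, rrp12, utp13 and rrp46, while the utp23 call was lost. With each array centred on its median, 8 genes rose and 2 fell, against 15.9% and 12% of all genes. On that scale rrp46 (1.09, adjusted p = 0.00336), utp13 (0.63), rrp12 (0.54) and imp3 (-0.41) passed in addition to the 6 genes above. The genes gar1, nop16, utp20, bms1 and cbf5 were called higher under all 3 scalings.

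**Figure D3:**
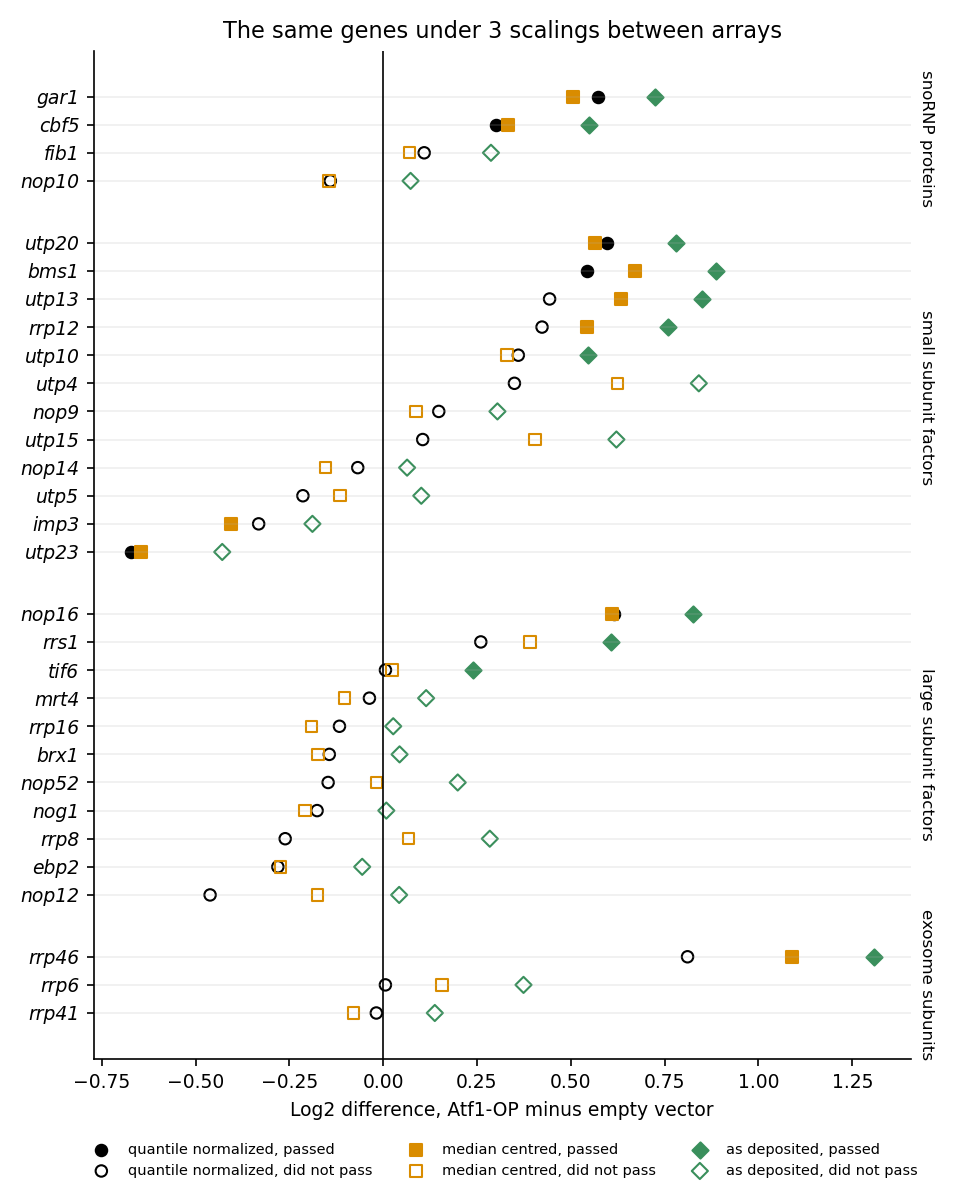
Log2 difference of each gene, Atf1-OP minus empty vector, under 3 scalings between arrays; filled symbols passed an adjusted p of 0.05 and open ones did not. The deposited values (green) lie right of the quantile normalized ones (black) for all 30 genes, and gar1, cbf5, utp20, bms1 and nop16 are filled under all 3.

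Gene length also ran along with the calls on these arrays. All genes that rose had a median length of 2080 bp and all that fell 1531 bp, against 1875 bp for all tested. The ribosome biogenesis genes ranged from 394 bp for nop10 to 7741 bp for utp20, with a median of 1726 bp, and the 5 that rose had a median of 1851 bp. After a correction for length, 6 of the 30 rose and 1 fell, or 23.3%, against 25.7% of all genes tested. Of all 2857 genes, 356 rose and 379 fell after that correction.

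Genes listed as working beside these factors were taken by name, and their roles in fission yeast were not tested. Of 36 other assembly factor genes, rlp7, for a large subunit assembly protein, rose (0.55 ± 0.12 SE; limma, adjusted p = 0.0188), 3 fell and 32 did not pass. Those that fell were cgr1 (-0.73), for a large subunit factor, drs1 (-0.39), for a DEAD-box helicase, and snu13 (-0.38), for a protein of the box C/D snoRNPs. The share called was 11.1%, and the list median was 0.07. In the values as deposited, 13 of these genes rose and 1 fell, with a median of 0.39, and the falls of drs1 (-0.16, adjusted p = 0.154) and snu13 (-0.17, adjusted p = 0.162) were lost. Of 12 measured genes listed for RNA polymerase I, 2 fell and none rose, with a median of -0.11. Those that fell were rrn7 (-0.61), for a core initiation factor, and spp27 (-0.87), for a subunit of the upstream activating factor. Genes for shared subunits, such as rpc40 (0.59, rose) and rpc10 (-0.70, fell), were counted with RNA polymerase III instead. The balance of the 12 genes turned with the scaling: 3 rose and 1 fell as deposited (median 0.24), and 2 rose and 2 fell with median centring (median 0.02). The gene of the largest polymerase I subunit, nuc1, stood at 0.11 (adjusted p = 0.404). The spp27 transcript did not pass in the values as deposited (-0.34, adjusted p = 0.198).

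Of 21 RNA polymerase III genes, which serve the making of 5S and transfer RNAs, 6 rose and 1 fell, or 33.3%, with a median of -0.09; as deposited, 10 rose and 1 fell, with a median of 0.40. Among the rises were rpc11 (0.72), rpc40 (0.59), whose product is shared with RNA polymerase I in budding yeast, and the TFIIIC genes sfc1 (0.72) and sfc3 (0.74). The brf1 transcript, for an initiation factor, was also among the 6 and was at least 1.28-fold higher. It was not above background on either empty vector array. It entered the fit through its Atf1-OP arrays alone, so its call rests on empty vector values below background. The gene that fell was rpc10 (-0.70), for a small subunit shared by the polymerases. A list of 12 genes was taken by name for growth control over ribosome production. Of these, sfp1 rose by 0.65 ± 0.14 (SE, limma, adjusted p = 0.0177). It encodes a zinc finger protein whose budding yeast namesake activates ribosome biogenesis genes. The rhb1 transcript (0.40), for the GTPase upstream of TORC1, rose as well. The kinase gene gad8 (-0.46) fell, and the list median was 0.17, with 8 positive and 4 negative differences. Among the negative ones were rap1 (-0.42) and fkh2 (-0.49), which did not pass. Whether these genes control ribosome production in fission yeast was not tested. As deposited, 6 of the 12 genes rose and 1 fell, with a median of 0.36. Among those 6 was sck2, which was not above background on either empty vector array and entered the fit through Atf1-OP alone. On the normalized scale sck2 was at least 1.10-fold higher.

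Of 111 cytosolic ribosomal protein genes, 19 rose, 18 fell and 74 did not pass, or 33.3% called, with a median of 0.00 and a range of -0.50 to 0.56. That even balance was not kept in the values as deposited (47 rose and 8 fell, median 0.15) or after the length correction (30 rose and 11 fell, median 0.12), while 13 rose and 13 fell with median centring. Examples were rps13 (0.39), rpl402 (0.43), rps2602 (0.44) and rps20 (0.41), which rose, and rpl2302 (-0.46), which fell. The rps27 transcript (-0.38) also fell, but after normalization its replicates were identical within each group, which hides their spread. The same held for the Atf1-OP replicates of rps2602 and the empty vector replicates of rps20. With median centring, rps13 (adjusted p = 0.203) and rps20 (adjusted p = 0.119) did not pass. Many of these genes have near-identical copies, and single copies are uncertain on this array. Without empty vector replicate 1, 2 ribosomal protein genes were called, and without Atf1-OP replicate 1, 74 were.

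**Figure D4:**
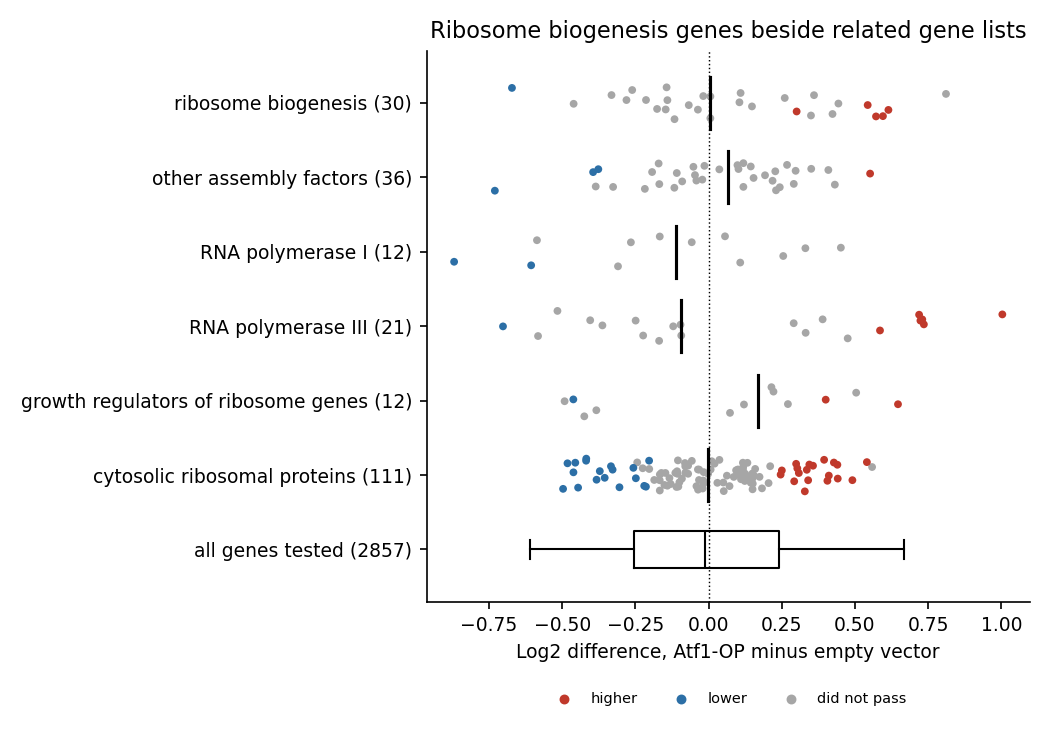
Log2 difference, Atf1-OP minus empty vector, of the ribosome biogenesis genes and 5 related lists, 1 point per gene (red higher, blue lower, grey did not pass; black bars are list medians; vertical scatter is random). The box for all 2857 genes shows the quartiles, with whiskers at percentiles 5 and 95, and the list medians run from -0.11 for RNA polymerase I to 0.17 for growth regulators.

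The array also carried 7 probe sets for S. pombe ribosomal RNA, the material these factors process. All 7 read lower in Atf1-OP cells, with no overlap between groups, on the deposited log2 scale. The 5.8S probe set had the largest difference, with 10.4 and 10.5 in Atf1-OP cells and 11.9 and 11.9 in empty vector cells, or -1.49. The 3 probe sets along the 18S RNA differed by -0.50 to -0.42, and those along the 28S RNA by -0.99 to -0.12. The class mean was 10.4 and 10.5 in Atf1-OP cells and 11.1 and 11.1 in empty vector cells. These probe sets are array controls, were not part of the fit and have no adjusted p. The hybridization controls on the same arrays fell by 1.02 on the log2 scale on average, more than the ribosomal RNA class mean of -0.66. The 12 probe sets in the middle of the poly-A controls moved the other way, by a mean of 1.22. The share of these shifts in the ribosomal RNA values was not tested. Groups also did not overlap for 66.3% of all genes tested, on the normalized scale.

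**Figure D5:**
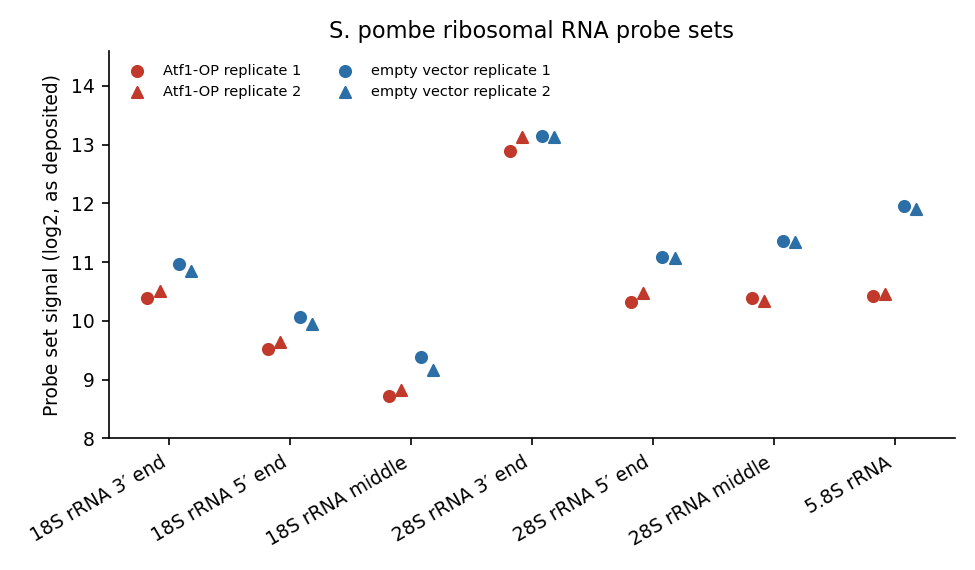
Deposited log2 signal of the 7 S. pombe ribosomal RNA probe sets on each array, Atf1-OP in red left of empty vector in blue. All red points lie below the blue points of the same probe set, by the least at the 28S 3′ end (-0.12) and the most for 5.8S (-1.49).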

How the data were processed

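Total RNA was labelled with biotin by the Affymetrix protocol, per the labels' protocols, and hybridised to 4 arrays. The authors deposited 1 log2 value per probe set and array, 1.46 to 14.0, judged log2 from this range; how they were summarised and normalized is not given in the sources used here. Groups and replicate numbers came from the titles. The labels give no batch. Of 10928 probe sets, the platform annotation named 5538. S. pombe probe sets (2917) were matched to RefSeq assembly ASM294v3, 2914 by identifier and 3 by symbol, and used for names and gene lengths. For genes with several, the brightest was kept (2899 genes). Array medians differed by 0.274, above a tolerance of 0.1, so quantile normalization was applied across the S. pombe probe sets. Background was set from 2593 S. cerevisiae probe sets, at their percentile 95, and genes above it on at least 2 arrays (2857) were tested. A fold against a group at background is a lower bound ("at least"), taken against background or the measured value, whichever was higher.

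The comparison used limma 3.58.1 under R 4.3.3 (eBayes with trend, Benjamini-Hochberg over all 2857 genes). The fit was run on simulated data in which spreads were shuffled across genes, so that run could not test the trend. Lists were described by counts and medians, with no set test. Genes, lists and tests were chosen with earlier results of these data known. All 30 genes are named; per-array values are given for the 12 with the smallest p and for some others, chosen after their values were seen. The exosome genes dis3, csl4 and mtr4, and nhp2 and nuc1, were likewise named after their values were seen. A planned count of promoter motifs was not made, since promoter sequences were not used here. The labels do not say whether replicate numbers pair the samples, so no block was used in the comparison. The correlation of deviations between arrays of the same number, 0.038, is a single summary over all genes and cannot settle this. Figures used matplotlib 3.10.9.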

Additional observations from a re-analysis of the deposited data

How the results depend on the processing

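Over all 2857 genes, 611 passed as described above, 1019 with the values as deposited and 798 with median centring. At an adjusted p under 0.10, 933 passed, and 178 passed in a fit without trend. The number of ribosome biogenesis genes called was 6 (5 higher, 1 lower). It was 11 (11 and 0) with the values as deposited, 10 (8 and 2) with median centring, 10 (8 and 2) at an adjusted p under 0.10 and 2 (2 and 0) in a fit without trend. It ranged from 0 to 4 in the fits that left out 1 array, with 0 to 2 higher and 0 to 2 lower. It was 7 with no background filter, a filter on all 4 arrays, a pseudocount of 16, the mean of probe sets, the length correction and the replicate block. Over all genes, between 609 and 848 passed under those settings. The list median of 0.01 moved to 0.29 with the values as deposited and stayed within 0.094 of its value under the other alternatives. That limit is the SD of the genes' median signal between replicate arrays, which is not a spread of the median difference. The replicate block raised the calls over all genes to 848, from 611, and the RNA polymerase I calls to 4. The 4 calls among other assembly factors (1 higher, 3 lower) became 14 (13 and 1) with the deposited values, 8 (4 and 4) with median centring, 8 at 0.10, 0 without trend and 0 to 7 with 1 array left out. The 2 RNA polymerase I calls (both lower) became 4 (3 higher, 1 lower) with the deposited values, 4 (2 and 2) with median centring, 1 without trend and 0 to 2 with 1 array left out. The 7 RNA polymerase III calls became 11 with the deposited values, 11 at 0.10, 3 without trend and 0 to 4 with 1 array left out. The 3 growth control calls became 7 with the deposited values, 0 without trend and 0 to 2 with 1 array left out. The 37 ribosomal protein calls (19 and 18) became 55 (47 and 8) with the deposited values, 41 (30 and 11) with the length correction, 26 (13 and 13) with median centring, 0 without trend and 1 to 74 with 1 array left out. Log2 differences changed sign with the deposited values for nop10 (0.073), utp5 (0.10), nop14 (0.064), brx1 (0.044), nog1 (0.0084), nop12 (0.043), nop52 (0.20), mrt4 (0.11), rrp16 (0.027), rrp8 (0.28) and rrp41 (0.14), and with median centring for rrp8 (0.067). The length correction turned nop10 (0.045), mrt4 (0.0049), rrp6 (-0.026) and rrp41 (0.036). With 1 array left out, signs turned within these ranges: nop10 -0.30 to 0.015, utp4 -0.079 to 0.78, utp15 -0.15 to 0.36, nop14 -0.21 to 0.076, nop9 -0.070 to 0.37, mrt4 -0.092 to 0.018, tif6 -0.094 to 0.11, rrp8 -0.56 to 0.036, rrp6 -0.087 to 0.099 and rrp41 -0.13 to 0.093. None of the genes that turned had passed with all arrays. The cause of these changes was not tested. Fits with a single array in a group took that array's spread from the other group, and 2 arrays a group limit the precision.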
